A study of Homo sapiens with 8 samples.

Results

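Gene expression 3 days after chromium was compared with that of untreated cells in a human lymphoblastoid cell line, using the 2 libraries labelled as 3 days post treatment and the 2 control libraries. These are 4 of the 8 libraries of a time course that also holds 2 libraries at 24 h of exposure and 2 at 7 days. All 4 groups came from the same line, grown in RPMI medium; the exposed cells received 5 µM hexavalent chromium (Cr6) for 24 h, and the controls were collected before exposure. The sample labels count the days from the treatment, whereas the series counts time from the onset of exposure, so the 3 day libraries may lie at 3 days from either. Because the controls precede the exposure, chromium and time in culture cannot be told apart. Of 23710 genes in the tables, 12536 passed the filter on low counts and were tested.

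A lymphoblastoid line is a culture of B cells made to grow without limit by Epstein-Barr virus. Its viral membrane protein LMP1 works much like an active CD40 receptor and keeps NF-kB signalling on, which in these cells drives chemokines, adhesion molecules and survival genes. Chromate enters cells through anion transporters and is reduced inside the cell by glutathione, ascorbate and other thiols to trivalent chromium, which binds DNA and proteins.

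The 4 libraries held from 9478459 to 11110830 gene counts, a range that also takes in the other 4. Among these 4, the 3 day replicate 1 stood apart. Its 20 highest genes took 12.5% of its counts, against 8.91% to 9.51% in the other 3, and 39.4% of its reads fell in no counted feature, against 44.4% to 47.5%. The 7 day replicate 1 was similar, with 12.5% and 36.5%. Over the 12536 genes, the SD of the log2 CPM difference from the control mean was 0.775 in replicate 1 and 0.468 in replicate 2, beside 0.468 for the difference between the 2 controls. The last is a difference between single libraries, whereas the others are differences from a mean of 2 libraries. Equal values of these unlike measures therefore do not mean an equal spread. The difference between the 3 day replicates had an SD of 0.814, and across genes it correlated with the same difference at 7 days (r = 0.81, 12536 genes, a description with no p). Values are therefore given for each library, in the order replicate 1 and replicate 2, and CPM stands for the usual library-scaled counts, with TMM-adjusted library sizes. The summed CPM of 15 myeloid markers was 56.5 and 45.8 in the controls and 25.4 and 12.05 at 3 days. Most of it came from VCAN, with 54.4 and 43.2 CPM in the controls and 19.3 and 10.3 CPM at 3 days. The defining genes S100A8, S100A9 and S100A12 were at 0 in all 4 libraries. Other members were low and did not all fall. CD68 had 1.49 and 2.05 CPM in the controls and 3.5 and 1.25 CPM at 3 days. CD14 was at 0 in both controls and at 1.13 and 0.089 CPM at 3 days. The sum of 17 T and NK cell markers was 9.05 and 10.1 CPM in the controls and 13.9 and 12.8 CPM at 3 days, and 10 erythroid markers did not exceed 0.72 CPM in any of these libraries. B cell identity markers, 29 genes, summed to 4224 and 4714 CPM in the controls and to 3943 and 4106 CPM at 3 days. In bulk RNA, fewer cells of a type and less RNA per cell cannot be told apart.

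No gene passed an adjusted p of 0.05 in the quasi-likelihood test of edgeR with Benjamini-Hochberg adjustment (0 of 12536 genes in each direction, 0%). At an unadjusted p under 0.05 the same test gave 270 genes higher at 3 days (2.15%) and 393 lower (3.13%), and DESeq2 called 9 genes, all lower: ITGA1, LTA, CCL22, RASSF4, LINC00158, VCAM1, NTRK2, EMR4P and LOC256021, the last a symbol outside the naming rule. With no group difference, a share of about 0.05 of all genes, both directions together, would have an unadjusted p under 0.05 in edgeR. Without the filter on counts edgeR called 11 genes, all lower. The edgeR counts at an unadjusted p under 0.05 were 112 higher and 227 lower without 3 day replicate 1, and 962 higher and 995 lower without 3 day replicate 2. They were 128 and 292 without control replicate 1, and 47 and 148 without control replicate 2. With 2 libraries a group, an exact permutation test of a single gene cannot go below 0.333, and the p-values measure the spread between these libraries only. The genes are therefore described by whether both 3 day libraries lay outside both controls, and by the gap, the smallest of the 4 log2 CPM differences between a 3 day and a control library. Both 3 day libraries lay above both controls for 2098 genes (16.7%) and below them for 2154 genes (17.2%). With no group difference, a share of about 0.333 would separate in this way, both directions together. The observed shares are near that level and show no excess of separated genes. With a gap of at least 0.5 log2 units there were 137 genes above (1.09%) and 381 below (3.04%). With a gap of at least 1 log2 unit there were 14 above (0.112%) and 86 below (0.686%). Of those 86 lower genes, 79 were among the 4179 genes of lowest mean level (median 3.08 CPM), 5 among the next 4178 and 2 among the 4179 highest.

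**Figure D1:**
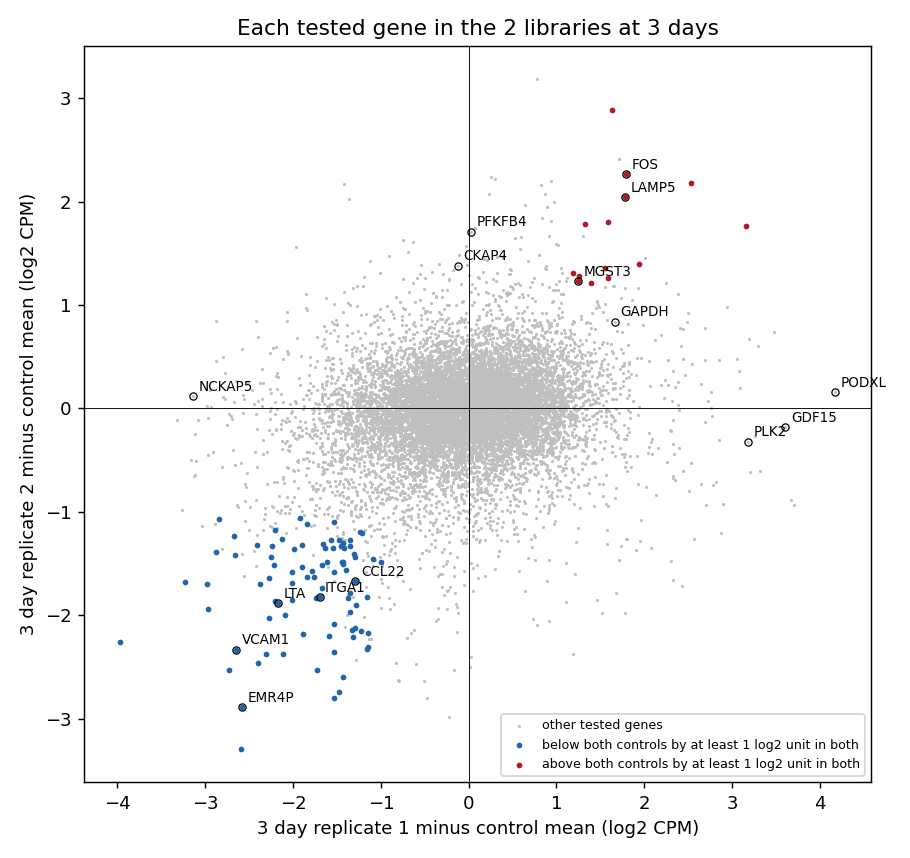
Difference from the control mean in log2 CPM for each tested gene, with 3 day replicate 1 on the horizontal axis and 3 day replicate 2 on the vertical axis. The 86 blue genes lay at least 1 log2 unit below both controls in both libraries and the 14 red genes above, while PODXL, GDF15 and PLK2 lay far to the right and near 0 on the vertical axis.

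The genes below both controls are described by role, from cell adhesion and matrix to ligands, receptors and signalling. ITGA1, the collagen-binding integrin alpha 1 subunit, had 70.4 and 77.3 CPM in the controls and 22.6 and 20.7 CPM at 3 days. Both 3 day libraries lay far below both controls. Its log2 fold change was -1.77 ± 0.21 (SE), and its adjusted p of 0.359 was the lowest of all genes in edgeR's quasi-likelihood test with Benjamini-Hochberg adjustment. VCAM1, the vascular cell adhesion molecule that binds integrin alpha 4 beta 1, stood at 7.03 and 5.43 CPM in the controls and at 0.822 and 1.07 CPM at 3 days. The groups did not overlap, and the log2 fold change was -2.70 ± 0.42 (SE, adjusted p of 0.78 in edgeR). Every other gene described for this comparison by a fold change had an adjusted p of 0.78 or 0.843 in that test. VCAN, which encodes the matrix proteoglycan versican, had 54.4 and 43.2 CPM in the controls and 19.3 and 10.3 CPM at 3 days (log2 fold change -1.72 ± 0.53). MMP7, the protease matrilysin, had 27.9 and 41.5 CPM in the controls and 13.9 and 6.16 CPM at 3 days (log2 fold change -1.80 ± 0.45). For both genes replicate 2 was the lower of the 3 day libraries, and both 3 day libraries lay below both controls. Of 33 tested integrins and adhesion molecules, 9 (27.3%) lay below both controls and 4 (12.1%) above, beside 17.2% and 16.7% of all genes. Of 34 tested matrix proteins and extracellular proteases, 9 (26.5%) lay below and 3 (8.82%) above. Among those above, SPARC of the matrix list had 34.5 and 23.9 CPM in the controls and 58.9 and 52.9 CPM at 3 days. ITGAE of the adhesion list had 16.1 and 14.02 CPM in the controls and 19.1 and 27.75 CPM at 3 days.

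Among secreted ligands, LTA, which encodes lymphotoxin alpha, a ligand of the TNF receptors, had 291 and 532 CPM in the controls and 87.4 and 106 CPM at 3 days. The controls differed widely, yet the gap was 1.45 log2 units. The log2 fold change was -2.09 ± 0.40. CCL22, the chemokine that attracts CCR4-bearing T cells, had 725 and 534 CPM in the controls and 254 and 195 CPM at 3 days, with a log2 fold change of -1.49 ± 0.26. XCL1, or lymphotactin, had 10.015 and 17.3 CPM in the controls and 4.42 and 4.28 CPM at 3 days; its near-identical copy XCL2 makes its count uncertain. All 3 ligand genes lay below both controls in both libraries. Of the 48 listed cytokines and chemokines, 37 passed the filter, and 18 of the 37 (48.6%) lay below both controls, beside 17.2% of all genes, while 2 (5.41%), TGFB1 and AIMP1, named after their values were seen, lay above, beside 16.7%. Their median log2 fold change was -0.50, beside 0.01 over all genes, and against the control mean the list's median stood at -0.58 (replicate 1) and -0.44 (replicate 2).

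NTRK2, IL2RA and other receptors named here lay below both controls in both libraries. NTRK2, the BDNF receptor tyrosine kinase, had 17.9 and 19.8 CPM in the controls and 4.52 and 6.16 CPM at 3 days (log2 fold change -1.81 ± 0.35). NPR1, the receptor guanylyl cyclase for natriuretic peptides, had 6.06 and 8.80 CPM in the controls and 1.54 and 1.25 CPM at 3 days (log2 fold change -2.40 ± 0.70). IL2RA, the alpha chain of the interleukin 2 receptor, had 22.9 and 24.2 CPM in the controls and 10.9 and 11.8 CPM at 3 days (log2 fold change -1.05 ± 0.24). In each of these receptors the spread within a group was small beside the distance between the groups. IL18R1, a chain of the interleukin 18 receptor, stood at 17.0 and 18.2 CPM in the controls and at 7.40 and 9.46 CPM at 3 days. CD226, an activating receptor for nectin-family ligands, was the most abundant of them, with 222 and 281 CPM in the controls and 90.5 and 154 CPM at 3 days. Of 49 tested cytokine and chemokine receptors, 10 (20.4%) lay below both controls, a share near the 17.2% of all genes. Another 3 (6.12%) lay above, under the 16.7% of all genes. Of 36 tested receptor and adaptor tyrosine kinases, 13 (36.1%) lay below both controls and 2 above, beside 17.2% and 16.7% of all genes, with library medians of -0.31 and -0.27. TYK2, a Janus kinase of interferon and interleukin receptors, had 106 and 92.7 CPM in the controls and 68.9 and 64.7 CPM at 3 days.

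Inside the cell, NFKB2, TRAF1 and BIRC3 lay below both controls in both libraries. NFKB2, which encodes the p100 precursor of the alternative NF-kB pathway, had 147 and 151 CPM in the controls and 73.6 and 78.5 CPM at 3 days, with a log2 fold change of -0.97 ± 0.20. TRAF1, an adaptor of TNF receptors and of LMP1, had 195 and 167 CPM in the controls and 89.1 and 103 CPM at 3 days, with a log2 fold change of -0.91 ± 0.20. BIRC3, an inhibitor of apoptosis protein bound by TRAF proteins, had 526 and 823 CPM in the controls and 270 and 378 CPM at 3 days. The 3 day libraries differed less from each other than from the nearest control for NFKB2 and TRAF1. A list of 33 host genes known to respond to the viral proteins EBNA2 and LMP1 had 19 members (57.6%) below both controls and 0 above, beside 17.2% and 16.7% of all genes. Its median log2 fold change was -0.49, and the list's medians were -0.43 in replicate 1 and -0.64 in replicate 2. The list holds LTA, CCL22, NFKB2 and TRAF1 and was chosen with earlier results of these data known, so its share is a description. LTA and CCL22 also count among the cytokines and chemokines. RASSF4, a Ras association domain protein, had 41.6 and 36.2 CPM in the controls and 13.2 and 15.2 CPM at 3 days (log2 fold change -1.46 ± 0.22). KALRN, which encodes the signalling protein kalirin, had 6.85 and 7.37 CPM in the controls and 2.16 and 2.68 CPM at 3 days. DGKI, a diacylglycerol kinase, had 12.7 and 15.7 CPM in the controls and 1.75 and 5.26 CPM at 3 days, and here the 3 day libraries differed from each other more than the controls did.

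The promoters of a ligand, a chemokine, an adhesion molecule and an NF-kB subunit among the lower genes are shown because each holds a match to the NF-kB consensus, in capitals, in the 250 bases before the annotated start. The promoters of ITGA1, NTRK2, DGKI and TC2N also held a match. Those of NPR1, RASSF4, KALRN, LINC00158, C1orf173, MS4A7 and TRAF1 held none. Of the promoters shown, those of CCL22 and NFKB2 belong to genes outside the 15 lower genes with the largest gap. Sequences are from RefSeq on GRCh38.p14, on the plus strand, and the consensus was searched by name on both strands. VCAM1 is at chr1:100719492-100719741 with a match starting 62 bases before the start, and LTA at chr6:31572039-31572288 with 2 overlapping matches, the nearer at 103 bases. CCL22 is at chr16:57358533-57358782 with 2 overlapping matches, the nearer at 185 bases, and NFKB2 at chr10:102395455-102395704 with 2 separate matches, the nearer at 21 bases.
VCAM1: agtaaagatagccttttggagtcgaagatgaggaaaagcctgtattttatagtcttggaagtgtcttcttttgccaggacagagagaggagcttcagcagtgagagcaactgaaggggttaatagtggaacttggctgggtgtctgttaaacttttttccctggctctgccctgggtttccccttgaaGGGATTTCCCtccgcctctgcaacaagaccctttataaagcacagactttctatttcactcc
LTA: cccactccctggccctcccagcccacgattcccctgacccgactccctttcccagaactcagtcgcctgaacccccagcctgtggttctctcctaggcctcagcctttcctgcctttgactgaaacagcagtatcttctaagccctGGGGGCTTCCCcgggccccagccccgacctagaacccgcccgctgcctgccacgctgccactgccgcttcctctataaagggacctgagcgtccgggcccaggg
CCL22: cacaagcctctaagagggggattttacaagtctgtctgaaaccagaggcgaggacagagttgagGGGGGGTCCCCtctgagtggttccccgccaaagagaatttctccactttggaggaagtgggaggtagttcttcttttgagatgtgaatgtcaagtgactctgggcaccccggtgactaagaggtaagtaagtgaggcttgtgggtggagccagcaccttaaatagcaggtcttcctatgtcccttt
NFKB2: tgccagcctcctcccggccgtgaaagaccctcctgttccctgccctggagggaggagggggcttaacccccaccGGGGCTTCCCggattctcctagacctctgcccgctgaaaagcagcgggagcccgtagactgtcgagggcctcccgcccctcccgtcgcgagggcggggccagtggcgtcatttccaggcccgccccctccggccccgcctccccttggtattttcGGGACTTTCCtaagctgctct
A promoter was given for 12 of the 15 genes with the largest gap below the controls, and 6 of the 12 held such a match. The share was 11.15% over the 9857 tested genes with a promoter (1099 genes). It was 18.03% (11 of 61) over genes below both controls by at least 1 log2 unit and 13.97% (38 of 272) over those below by at least 0.5 log2 units. Among genes above both controls the share was 12.22% (11 of 90) at 0.5 log2 units and 9.09% (1 of 11) at 1 log2 unit, and 0 of the 11 promoters given for the 15 genes with the largest gap held these letters. At 0.5 log2 units the shares of lower and higher genes were thus close to each other and to that of all genes. A match describes the sequence and is no measure of binding.

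The 5 tested guanylate-binding proteins, GTPases induced by interferon, all lay below both controls, beside 17.2% of all genes. Their median log2 fold change was -0.83. GBP1 had 155 and 151 CPM in the controls and 84.2 and 88.5 CPM at 3 days (log2 fold change -0.83 ± 0.19), and GBP4 had 111 and 109 CPM in the controls and 59.5 and 42.8 CPM at 3 days (log2 fold change -1.10 ± 0.25). MX1, an antiviral GTPase, stood at 1028 and 1206 CPM in the controls and at 783 and 778 CPM at 3 days. MS4A7, a membrane protein of the family of the CD20 gene, had 18.6 and 19.0 CPM in the controls and 3.39 and 7.41 CPM at 3 days. MS4A1, which encodes CD20 itself, had 1142 and 1518 CPM in the controls and 818 and 999 CPM at 3 days, without overlap. Of 27 tested B cell identity genes, however, 6 (22.2%) lay below both controls and 2 (7.41%) above, beside 17.2% and 16.7% of all genes. The list's medians were -0.47 in replicate 1 and 0.08 in replicate 2. CCND2, the cyclin D2 of the G1 phase, had 1816 and 1436 CPM in the controls and 938 and 1161 CPM at 3 days.

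Several low or noncoding genes had the widest gaps. EMR4P, a pseudogene of the adhesion receptor family EMR whose count is uncertain beside its relatives, had 5.27 and 6.55 CPM in the controls and 0.822 and 0.625 CPM at 3 days. Its gap of 2.43 log2 units was the largest among the genes eligible to be named. KIF26B, a kinesin family member, had 13.7 and 10.1 CPM in the controls and 2.78 and 3.12 CPM at 3 days (log2 fold change -2.01 ± 0.46). LINC00158, a long noncoding RNA, had 28.5 and 34.3 CPM in the controls and 10.1 and 11.1 CPM at 3 days (log2 fold change -1.57 ± 0.27), and the replicates of each group lay close together. MIR22HG, the host gene of the microRNA miR-22, had 14.6 and 15.3 CPM in the controls and 7.09 and 7.32 CPM at 3 days. NEAT1, the RNA scaffold of nuclear paraspeckles, had 1101 and 1620 CPM in the controls and 322 and 1009 CPM at 3 days. Its replicate 2 lay just below the lower control, with a gap of 0.13 log2 units. The genes TC2N, BCAS1 and C1orf173 completed the 15 lower genes with the largest gap, with log2 fold changes of -2.21 ± 0.53, -1.84 ± 0.46 and -2.37 ± 0.61. For TC2N the controls were 9.05 and 19.8 CPM and for C1orf173 8.43 and 22.2 CPM, so these controls differed more than the 3 day libraries did.

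**Figure D2:**
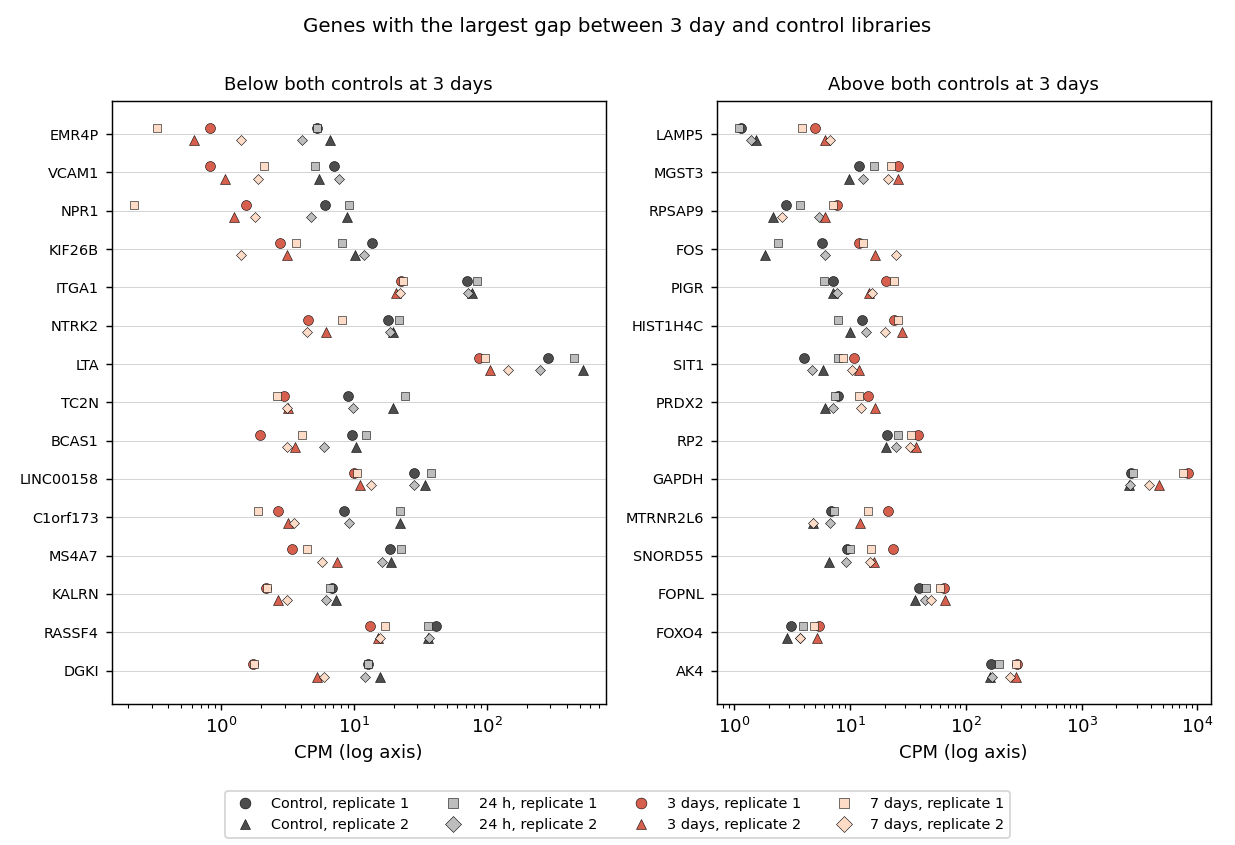
CPM on a log axis in every library of the series for the 15 genes below (left) and 15 genes above (right) both controls with the largest gap at 3 days. Dark points are controls and red points 3 day libraries, with circles for replicate 1 and triangles for replicate 2. ITGA1 stood at 70.4 and 77.3 CPM in the controls and at 22.6 and 20.7 CPM at 3 days.

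Genes above both controls were fewer at large gaps and held enzymes of thiol chemistry. MGST3, a microsomal glutathione transferase, had 12.04 and 9.83 CPM in the controls and 26.0 and 25.8 CPM at 3 days. The 3 day libraries were almost equal, and the log2 fold change was 1.24 ± 0.24. PRDX2, a peroxiredoxin that reduces hydrogen peroxide, had 7.91 and 6.14 CPM in the controls and 14.4 and 16.6 CPM at 3 days (log2 fold change 1.14 ± 0.27). GSTO1, the omega class glutathione transferase, had 81.4 and 61.7 CPM in the controls and 139 and 128 CPM at 3 days (log2 fold change 0.90 ± 0.22). Both libraries exceeded both controls for all 3 enzymes. Of 41 tested genes of chromate entry and reduction, 13 (31.7%) lay above both controls and 2 below, beside 16.7% and 17.2% of all genes. The list's medians differed between the replicates, at 0.33 in replicate 1 and -0.02 in replicate 2. Thus SLC26A2, a sulfate transporter of the kind that carries chromate, had 63.7 and 51.2 CPM in the controls and 33.2 and 70.0 CPM at 3 days, on opposite sides, and GCLM, the modifier subunit of the enzyme that starts glutathione synthesis, had 24.5 and 24.7 CPM in the controls and 24.6 and 24.2 CPM at 3 days. Both genes were chosen after their values were seen.

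LDHA, ENO1 and GAPDH of glycolysis lay above both controls in both replicates, further in replicate 1. LDHA, lactate dehydrogenase A, had 1893 and 1825 CPM in the controls and 3423 and 2505 CPM at 3 days (log2 fold change 0.67 ± 0.26). ENO1, enolase 1, had 922 and 985 CPM in the controls and 2353 and 1152 CPM at 3 days. GAPDH, which has many processed copies in the genome and is uncertain for that reason, had 2685 and 2578 CPM in the controls and 8341 and 4705 CPM at 3 days (log2 fold change 1.31 ± 0.39). SLC2A1, the glucose transporter GLUT1, had 48.1 and 64.2 CPM in the controls and 101 and 93.2 CPM at 3 days, and here the 3 day libraries were close. SLC16A3, a lactate transporter, had 8.70 and 13.001 CPM in the controls and 20.2 and 24.2 CPM at 3 days.

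HMGB1 and HMGB2, high mobility group proteins that bend DNA, lay above both controls in both libraries. HMGB1 had 295 and 305 CPM in the controls and 476 and 512 CPM at 3 days (log2 fold change 0.72 ± 0.20). HMGB2 had 323 and 319 CPM in the controls and 553 and 497 CPM at 3 days (log2 fold change 0.71 ± 0.22). Processed copies of HMGB1 make its count uncertain. STMN1, the tubulin-binding protein stathmin, had 593 and 604 CPM in the controls and 1104 and 802 CPM at 3 days. The list of linker and variant histones with their chaperones had 18 of 33 tested members (54.5%) above both controls and 3 (9.09%) below, beside 16.7% and 17.2% of all genes, with medians of 0.51 in replicate 1 and 0.28 in replicate 2.

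The remaining genes of the 15 with the largest gap above the controls had varied roles. FOS, the immediate early transcription factor, had 5.80 and 1.84 CPM in the controls and 11.9 and 16.6 CPM at 3 days (log2 fold change 1.89 ± 0.63), and its controls differed widely. LAMP5, of the lysosome-associated membrane protein family, had 1.14 and 1.54 CPM in the controls and 5.04 and 6.07 CPM at 3 days, with the largest gap of the higher genes (1.60 log2 units). PIGR, the polymeric immunoglobulin receptor, had 7.20 and 7.17 CPM in the controls and 20.4 and 14.5 CPM at 3 days. All 3 were low, under 25 CPM in each of these libraries. SIT1, a transmembrane adaptor that dampens antigen receptor signalling, had 4.04 and 5.83 CPM in the controls and 10.8 and 11.96 CPM at 3 days. RP2, a GTPase-activating protein for ARL3, had 21.0 and 20.4 CPM in the controls and 38.5 and 37.6 CPM at 3 days. AK4, the mitochondrial adenylate kinase 4, had 164 and 163 CPM in the controls and 279 and 269 CPM at 3 days (log2 fold change 0.74 ± 0.20). In RP2 and AK4 both pairs of replicates differed by little. FOPNL, a centrosomal protein, and FOXO4, a forkhead transcription factor, had log2 fold changes of 0.80 ± 0.20 and 0.83 ± 0.33. The counts of RPSAP9, a copy of a ribosomal protein gene, of MTRNR2L6, which resembles mitochondrial ribosomal RNA, and of the histone gene HIST1H4C are uncertain because near-identical copies exist, and those of SNORD55 because it lies inside another gene.

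In other genes a single 3 day library left the control range. Replicate 1 lay at least 1 log2 unit above both controls, with replicate 2 within their range, for 117 genes (0.933%), and below them for 248 genes (1.98%). The same with the replicates exchanged held for 9 genes above (0.0718%) and 28 below (0.223%). Wherever the other library lay, replicate 1 was at least 1 log2 unit above both controls for 523 genes (4.17%) and below for 900 (7.18%), and replicate 2 for 89 (0.71%) and 242 (1.93%). The replicates lay on opposite sides of both controls for 1605 genes with replicate 1 higher (12.8%) and 1541 with replicate 2 higher (12.3%), at least 1 log2 unit out on each side for 20 (0.16%). Such genes were picked for this difference between the replicates, and their values are a description. PODXL, the sialomucin podocalyxin, had 3.78 and 2.66 CPM in the controls and 60.7 and 3.57 CPM at 3 days. GDF15, a secreted stress cytokine and p53 target, had 1.93 and 2.87 CPM in the controls and 30.9 and 2.05 CPM at 3 days. TNFRSF10D and TNFRSF10A, a decoy and a death receptor for the ligand TRAIL, had 94.6 and 24.4 CPM in replicate 1 and 13.2 and 5.00 CPM in replicate 2. The controls were 16.5 and 12.7 CPM for TNFRSF10D and 4.48 and 5.02 CPM for TNFRSF10A, so only replicate 1 stood outside. PLK2, a polo-like kinase induced by p53, had 37.5 CPM in replicate 1 and 3.12 CPM in replicate 2, between controls of 5.62 and 2.76 CPM. On the low side, NBEA, the membrane traffic protein neurobeachin, had 17.0 and 29.8 CPM in the controls and 2.78 and 22.8 CPM at 3 days. SLC9A9, a sodium and proton exchanger of endosomes, had 7.99 and 13.1 CPM in the controls and 1.13 and 10.4 CPM at 3 days.

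Replicate 2 alone stood outside in a shorter set. CKAP4, a membrane protein of the endoplasmic reticulum, had 20.9 and 17.4 CPM in the controls and 17.5 and 49.97 CPM at 3 days. PFKFB4, an enzyme that sets the level of fructose 2,6-bisphosphate, had 18.8 and 38.4 CPM in the controls and 27.3 and 88.2 CPM at 3 days. TNC, the matrix protein tenascin C, had 6.501 and 9.01 CPM in the controls and 6.99 and 1.87 CPM at 3 days. In each of these genes the other 3 day library lay between the controls.

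**Figure D3:**
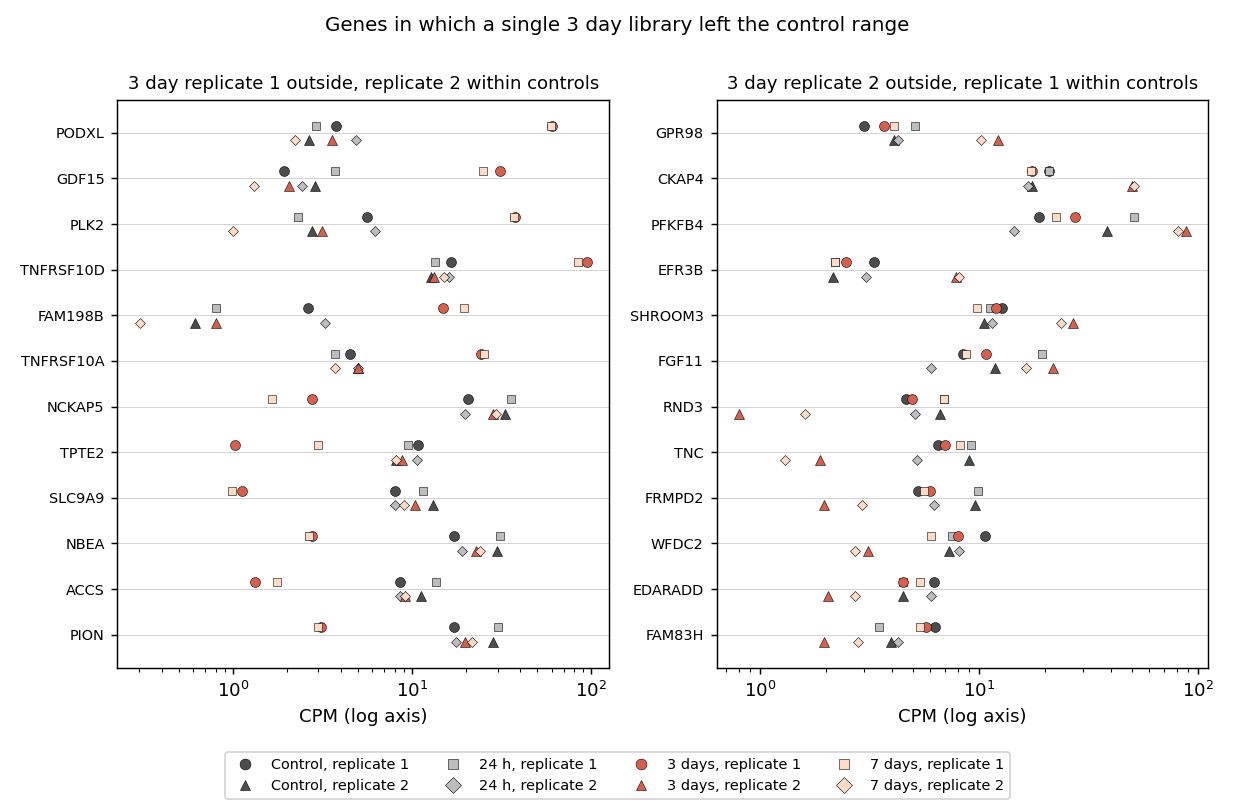
CPM on a log axis in every library for genes in which only 3 day replicate 1 (left) or only replicate 2 (right) lay outside the controls, 6 above and 6 below in each panel. Red circles are 3 day replicate 1 and red triangles replicate 2. For PODXL the circle stood at 60.7 CPM and the triangle at 3.57 CPM.

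The libraries at 7 days carry the same replicate numbers and repeated this split. PODXL had 59.9 and 2.21 CPM at 7 days, GDF15 had 25.0 and 1.31 CPM, NBEA had 2.65 and 23.8 CPM and CKAP4 had 17.2 and 51.1 CPM. Replicate 1 was thus the high library for PODXL and GDF15 and the low one for NBEA at both times. The labels do not say whether a replicate number marks a culture kept from 3 to 7 days.

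Gene lists and symbol families showed the same contrast between libraries. Among the 59 with at least 10 tested members, the medians of both 3 day libraries lay above the span of the 2 control medians in 9 and below it in 12. In 13 they lay on opposite sides of the span, in 23 only replicate 1 lay outside it, and in 1 only replicate 2. The 76 cytosolic ribosomal proteins, subunits of the ribosome, had a median of 1.42 in replicate 1 and 0.14 in replicate 2, beside 0.11 and -0.11 in the controls. RPLP0, for example, had 963 and 654 CPM in the controls and 2283 and 1088 CPM at 3 days. EEF1A1, the translation elongation factor that was the most abundant of the named genes, had 17619 and 13620 CPM in the controls and 43365 and 19771 CPM at 3 days. For these translation genes replicate 2 lay near the higher control. The LSM and SNRP proteins, which build the spliceosome's small ribonucleoproteins, had 12 of 23 members (52.2%) above both controls and 0 below, beside 16.7% and 17.2% of all genes, with medians of 0.78 and 0.20.

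Lists of other functions differed in how the replicates lay. The 39 p53 target genes had medians of 0.91 in replicate 1 and -0.29 in replicate 2, on opposite sides of the controls, and 5 of the 39 (12.8%) lay above both controls and 2 (5.13%) below, both under the 16.7% and 17.2% of all genes. The 22 HLA genes of antigen presentation had medians of 0.26 and -0.56. HLA-DRA, the class II alpha chain, had 3143 and 3099 CPM in the controls and 4395 and 2127 CPM at 3 days, on either side of both controls. HLA-DRA was chosen after its values were seen. The replication-dependent histones, 20 tested genes, had medians of -0.02 and 0.57, and their usual lack of a poly-A tail bears on counts from poly-A selected RNA. By contrast, 13 of 19 tested protocadherins (68.4%), cell adhesion proteins mostly of the gamma cluster, lay below both controls and 1 above, with medians of -0.61 and -0.63. The share below both controls was 17.2% over all genes and 22.57% over the 4179 genes of lowest level. All of them were low, at most 5.63 CPM in these 4 libraries, and genes of the gamma cluster share exons, so their counts are uncertain. The 439 tested zinc finger genes had medians of 0.08 and -0.01, close to the control mean in both libraries. The noncoding families differed in direction in replicate 1, and in each family named here replicate 2 lay within the span of the control medians. The 114 antisense RNAs had medians of -0.37 in replicate 1 and -0.01 in replicate 2, and the 284 genes with LOC symbols -0.51 and -0.01. The 158 small nucleolar RNA genes had medians of 0.40 and 0.03, beside 0.20 and -0.20 in the controls. The 13 small nucleolar RNA host genes had 0.77 and -0.09, beside 0.17 and -0.17 in the controls. The lower share of reads in no counted feature in replicate 1 (39.4%) stands beside these values, and its part in them was not tested.

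**Figure D4:**
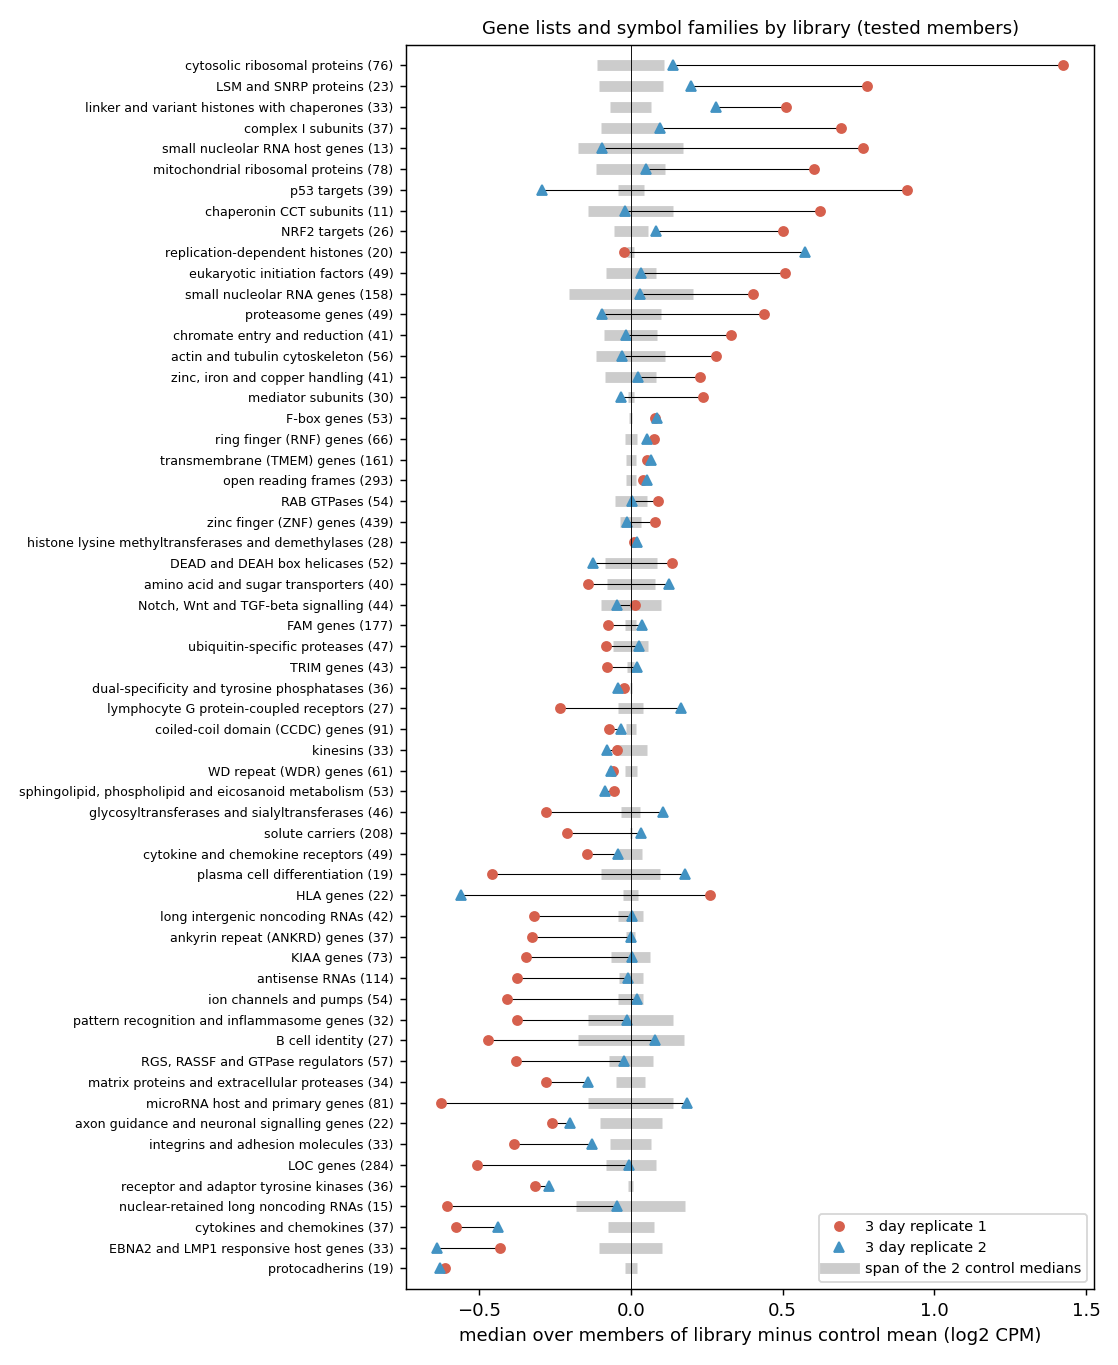
Median over the tested members of each gene list or symbol family of the library's log2 CPM minus the control mean, for 3 day replicate 1 (red circles) and replicate 2 (blue triangles). Grey bars span the 2 control medians, and numbers in brackets count tested members. Protocadherins lay low in both libraries, while cytosolic ribosomal proteins stood at 1.42 in replicate 1 and 0.14 in replicate 2.

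Set beside the 24 h libraries, the 3 day libraries again gave 0 calls in edgeR's quasi-likelihood test after adjustment, with 291 genes higher (2.32%) and 473 lower (3.77%) at an unadjusted p under 0.05. DESeq2 called 17 genes for that difference, 16 lower at 3 days and 1 higher. ITGA1 had 83.9 and 71.5 CPM at 24 h, LTA had 455 and 252 CPM, and CCL22 had 552 and 617 CPM, all above both 3 day libraries. The log2 difference of 3 days from 24 h was -1.84 for ITGA1, with an adjusted p of 0.269 in edgeR. The controls and the 24 h libraries were compared separately with the same 3 day libraries, so these values are not independent. MX1 already lay below both controls at 24 h, with 909 and 808 CPM, beside 783 and 778 CPM at 3 days. Other named genes also lay outside both controls at 24 h in the direction seen at 3 days. GSTO1 had 102 and 98.6 CPM at 24 h, MGST3 16.1 and 13.02 CPM and RP2 25.8 and 25.01 CPM, each above both controls. LDHA and STMN1 lay below both controls at 24 h, opposite to their direction at 3 days. From 3 to 7 days edgeR called 0 genes, with 12 higher (0.0957%) and 19 lower (0.152%) at an unadjusted p under 0.05. At 7 days ITGA1 stood at 23.3 and 22.2 CPM, LTA at 97.0 and 145 CPM and NFKB2 at 74.9 and 76.0 CPM. VCAM1 stood at 2.10 and 1.91 CPM, above both of its 3 day values and below both controls, with a log2 difference of 1.07 from 3 days and an adjusted p of 1 in edgeR. MGST3 had 22.6 and 21.4 CPM at 7 days, and FOS 12.9 and 25.2 CPM, above both controls in each case.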

How the data were processed

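RNA of 8 libraries was sequenced, and the authors deposited whole-number read counts per gene symbol, a table for each library with no pooling. Trim Galore, Bowtie2, SAMtools, DESeq2 1.8.1, R 3.2.3 and the builds GRCh37 and hg19 are named per the submitters' processing notes. Counting tool, strand setting and annotation release were not given in the sources used here, so a gene's reads cannot be separated from those of an overlapping or antisense neighbour. The 5 summary entries that name no gene, 42.6% to 57.5% of reads, were left out.

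Groups follow the sample labels, which describe the 2 libraries of a group as biological replicates. Genes were kept with filterByExpr (minimum count 10, minimum total 15) of edgeR 4.0.16 in R 4.3.3. Library sizes were scaled by TMM, and a quasi-likelihood fit of all 8 libraries with a coefficient per group gave each comparison, so that the groups shared an estimate of the spread. P-values were adjusted by Benjamini-Hochberg over 12536 genes, with a threshold of 0.05. Fold changes are given with a standard error derived from the test, the absolute log2 fold change divided by the square root of its F statistic. Log2 CPM used a prior count of 2. Depths of 9478459 to 11110830 gene counts leave genes under 5 CPM with few reads, and the PCR copies among them are not independent molecules.

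Genes were named, where a group mean reached 5 CPM, by a rule: the 15 per direction with the largest gap, the 10 separated genes with the smallest p, the 6 per replicate and direction in which a single 3 day library left the control range, the 8 per direction with the largest CPM difference, and up to 4 members of each of 29 lists and 3 of each of 37 symbol families. Clone and LOC identifiers were not eligible. The comparison, the lists and the rule were chosen with earlier results of these data known. On data simulated for 3 days against control (12536 genes, 200 changed, 50 at each size), the share recovered was 12% at a 2-fold change, 78% at 4-fold, 98% at 8-fold and 100% at 16-fold. There were 12 false calls. Changed genes were drawn only from those with a mean of at least 5 CPM. Each simulated library varied independently around a shared mean, so no replicate stood apart. The shares therefore do not cover lower genes or a replicate that stands apart.

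Alternatives were RLE and upper-quartile scaling, no filter or a stricter one (50 counts in 2 libraries), a prior count of 0.5, a fit of the 4 libraries only, robust empirical Bayes, a replicate block, each library left out, DESeq2 1.42.0 and limma-voom (limma 3.58.1). The motif search used RefSeq promoters of GRCh38.p14, matched by symbol.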

Additional observations from a re-analysis of the deposited data

Results flagged for a closer look

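For LDHA and STMN1 both 24 h libraries lay below both controls while both 3 day libraries lay above them. LDHA, lactate dehydrogenase A, had 1641 and 1567 CPM at 24 h, beside 1893 and 1825 CPM in the controls and 3423 and 2505 CPM at 3 days. Its log2 fold change against control was -0.21 at 24 h and 0.67 at 3 days. The log2 difference between 3 days and 24 h was 0.89, with an adjusted p of 0.757 in edgeR's quasi-likelihood test with Benjamini-Hochberg adjustment.

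STMN1, which encodes stathmin, had 536 and 579 CPM at 24 h, beside 593 and 604 CPM in the controls and 1104 and 802 CPM at 3 days. Its log2 fold change against control was -0.10 at 24 h and 0.67 at 3 days. The log2 difference between 3 days and 24 h was 0.77, with an adjusted p of 0.757 in the same test.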

How the results depend on the processing

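Without the filter on counts edgeR's quasi-likelihood test called 11 genes, all lower, and 530 genes were higher at an unadjusted p under 0.05. DESeq2 called 9 genes for 3 days against control, all lower, and 17 for 3 days against 24 h, 16 lower and 1 higher. DESeq2 on the genes edgeR tested, an alternative chosen after seeing the data, called 13, of which 12 were lower and 1 higher. Limma-voom, RLE and upper-quartile scaling, the stricter filter, robust empirical Bayes and the fit of 4 libraries called 0. The cause of these differences was not tested. Leaving out each control and each 3 day library in turn gave from 47 to 962 genes higher and from 148 to 995 lower at an unadjusted p under 0.05, and 0 calls each time. The lowest counts came without control replicate 2 and the highest without 3 day replicate 2. Without replicate 1 at both 3 and 7 days, also chosen after seeing the data, they were 360 higher and 440 lower.

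The labels do not say that a replicate number pairs libraries. Differences between replicates correlated across genes with r = 0.34 between control and 3 days, and with r = -0.32 between 24 h and 3 days. With the replicate block edgeR called 0 genes in each comparison, with 316 higher and 459 lower at an unadjusted p under 0.05 for 3 days against control. With the 24 h numbers exchanged, a pairing chosen after seeing the data, the block called 19 genes for 3 days against 24 h and 6 genes, all lower, for 3 days against control, where 958 genes were higher and 1104 lower at an unadjusted p under 0.05. A prior count of 0.5 was run for the separation counts and not for list medians. At this depth a gene near 1 CPM rests on about 10 reads in a library.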
